A study of Rattus norvegicus with 16 samples.

Results

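RNA sequencing of liver compared 4 rats fed R-α-lipoic acid (LA) with 4 pair-fed rats (PF), 8 of the 16 libraries of the series. The other 8 libraries came from epididymal fat under the same feeds. All rats were male Zucker rats of the strain ZDF/GmiCrl-fa/fa, obese animals without a functional receptor for leptin, so the controls carried the same defect as the treated animals. For 2 weeks, from 9 to 11 weeks of age, LA rats ate Purina 5008 feed with LA and PF rats were pair-fed Purina 5008 feed, in 2-day rations. The LA dose is not given in the sources used here, and no lean or freely fed group was analysed here. Values are FPKM, fragments scaled by transcript length and by library size, and each library is a separate rat. Of the symbols in the files, 9710 were at 1 FPKM or more in at least 4 of the 8 liver libraries and were tested with limma on log2(FPKM + 1), so that every fold change is on that scale, which understates the change of genes at a few FPKM or less. In what follows, rose, fell and passed mean an adjusted p under 0.05 over these 9710 genes, and PF and LA levels are given as mean ± SD (n = 4).

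Lipoic acid is a sulphur-containing cofactor that is bound to the mitochondrial dehydrogenases of pyruvate and 2-oxoglutarate, and as a feed additive it is also a redox-active foreign acid. Hepatocytes clear foreign compounds by oxidation with cytochromes P450, by conjugation with glutathione, sulphate or glucuronic acid, and by export. Transcription factors that sense such compounds, fatty acids or amino acid shortage, among them NRF2, CAR, PPARα and ATF4, control many of these genes. Hepatocytes also secrete most proteins of blood plasma, such as clotting factors, complement and protease inhibitors, while Kupffer cells are the macrophages resident in the liver.

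With limma, 435 genes passed, 4.48% of those tested. Of these, 220 rose (2.27%) and 215 fell (2.21%). These shares are the background for the count of each gene list below. The values of the LA and PF libraries did not overlap for 1192 genes (12.3%), among them 425 of the 435. The median log2 fold change of all genes was -0.002. Changes over 1 in size on the log2 scale were found for 55 genes that rose and 13 that fell. Of the 220 that rose 25, and of the 215 that fell 8, belonged to the lists of interferon response and de novo lipogenesis. These lists are short, with 41 and 17 genes tested, and interferon-induced genes outside them, such as Cxcl10, are not in these counts. The 5654 genes with a mean under 10 FPKM held 126 that rose and 53 that fell, whereas the 757 genes at 100 FPKM or more held 12 that rose and 67 that fell. Leaving out LA replicate 2 lowered the count to 208 and leaving out PF replicate 1 to 267, and 178 genes passed in each of the 8 fits with a library left out. Of the 435, 18 (14 that rose and 4 that fell) reached 1 FPKM in the group where they were high alone, so that a difference was a condition of their test, and 15 of the 18 passed with no filter on low values. For single genes, the libraries are named without which a call was lost or, where that is shorter, the only ones without which it was kept, each with the highest adjusted p of these fits.

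**Figure D1:**
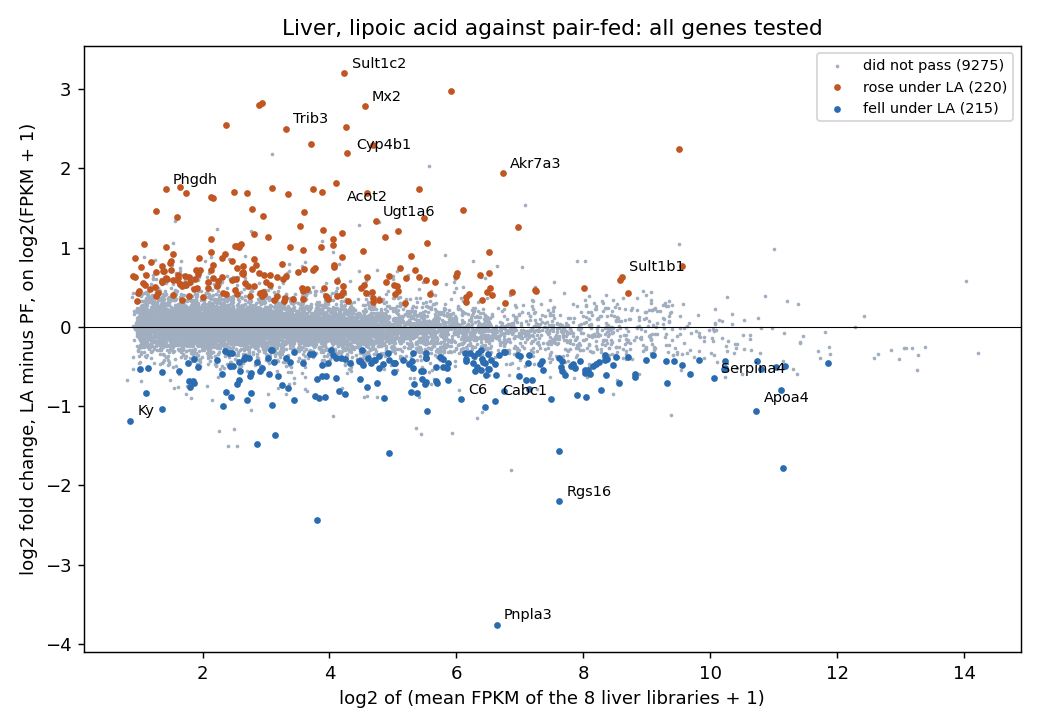
Each point is 1 of 9710 genes tested in liver, with its mean level on the x axis (log2 of FPKM + 1) and its log2 fold change, LA minus PF, on the y axis. Orange points are the 220 genes that rose and blue points the 215 that fell, and at 100 FPKM or more 67 of the 79 coloured points lie below 0.

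Libraries of the same diet resembled each other slightly more than libraries of different diets, with correlations of log2 values across genes of 0.989 to 0.992 within diets and 0.981 to 0.987 between them. The first principal component held 40.4% of the variance and separated the diets, with scores of -14.4 to -11.7 for PF, 9.03 and 8.71 for LA replicates 1 and 3, and 18.0 and 16.7 for LA replicates 2 and 4. Of the 193 genes that rose outside the reference lists for interferon, lipogenesis and fatty acid oxidation, 77 had their highest LA value in LA replicate 4 and 54 in LA replicate 2, and of the 206 that fell 107 had their lowest in LA replicate 2. Total reads are unknown, but the steps between the lowest values put a single fragment at 0.853 to 1.00 in PF and 0.721 to 0.893 in LA libraries, relative to PF replicate 1, so the LA libraries were on the whole deeper. The FPKM of all genes summed to between 559300 and 635800 in PF libraries and between 501600 and 556100 in LA libraries. The part of this difference in the falls of abundant genes was not tested. Hepatocyte markers summed to between 47440 and 58560 FPKM under PF and between 36290 and 44250 FPKM under LA, although Alb and Tf, which hepatocytes make in large amounts, are listed at 0 in all 8 libraries. Kupffer cell and macrophage markers summed to between 241 and 277 FPKM under PF and between 320 and 480 FPKM under LA, with Marco and Emr1 at 0. Of 13 hepatocyte markers tested, 6, Fga and Fgg among them, also belong to the plasma protein lists described below, so the 2 readings share genes. Of the 13, 2 fell (Fga and Fgg) and 0 rose, and of 12 macrophage markers 3 rose (Clec4f, Cd163 and Vsig4) and 0 fell. Each of these 2 counts was 0 without PF replicate 1, the hepatocyte count also without LA replicate 2 or 3 or PF replicate 2, and the macrophage count was 1 without PF replicate 2. In bulk tissue, fewer cells of a type and less RNA per cell cannot be told apart.

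The largest log2 rise among the genes that passed was that of Sult1c2, a cytosolic enzyme that transfers sulphate to phenols and other foreign compounds. It stood at 1.65, 2.89, 3.73 and 2.05 FPKM in PF replicates 1 to 4 and 17.5, 48.7, 28.4 and 37.9 FPKM in LA replicates 1 to 4. Every LA library was above every PF library (log2 fold change 3.20, SE 0.28, adjusted p = 0.000283). The near copy Sult1c2a stood at 6.08, 7.38, 11.9 and 5.99 FPKM under PF and 10.8, 15.7, 11.1 and 18.0 FPKM under LA, with overlapping groups (log2 fold change 0.77, SE 0.21, adjusted p = 0.0675), and reads of the pair cannot be fully told apart. Sult1b1, which sulphates thyroid hormone and small phenols, was far more abundant and rose from 305 ± 14.02 to 475 ± 45.7 FPKM (log2 fold change 0.63). Sult2al1, of the hydroxysteroid sulphotransferases, fell from 792 ± 169.9 to 481 ± 77.8 FPKM, and its relative Sult2a1 was at 938 ± 493 FPKM under PF and 395 ± 107 FPKM under LA with an adjusted p of 0.136. Of 11 sulphotransferases tested, 2 thus rose, 1 fell and 8 showed no call, the list median being -0.07 on the log2 scale. Calls of Sult1c2 and Sult1b1 held in all 8 fits with 1 library left out, while Sult2al1 kept its call only without PF replicate 1 (highest adjusted p 0.109). Sult1b1 and Sult2al1 lost their calls with all 16 libraries in 1 model (highest adjusted p 0.343) and Sult2al1 with no filter on low values (adjusted p = 0.0978).

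Glucuronidation genes moved in both directions. The UGT1A family makes its members from alternative first exons joined to a shared remainder, so the values of its members are uncertain. Ugt1a6, the form that glucuronidates simple phenols, was at 16.3, 10.1, 11.0 and 19.8 FPKM in PF replicates 1 to 4 and 31.3, 43.9, 41.9 and 29.8 FPKM in LA replicates 1 to 4. It rose without overlap between the groups (log2 fold change 1.33, SE 0.20, adjusted p = 0.00554). Ugt1a1, which conjugates bilirubin, was at 104, 140.2, 142 and 159.7 FPKM under PF and 80.4, 75.1, 69.0 and 81.5 FPKM under LA, and fell (log2 fold change -0.81, SE 0.12, adjusted p = 0.00526). Its neighbour Ugt1a5 fell from 48.9 ± 6.72 to 27.3 ± 3.20 FPKM, and Ugt1a7c rose from 2.51 ± 0.460 to 4.43 ± 1.05 FPKM with LA replicate 1 inside the PF range. Ugdh, the dehydrogenase that makes the UDP-glucuronic acid all of them use, rose from 62.1 ± 1.82 to 83.4 ± 5.62 FPKM. Among 11 genes of the list, 3 rose, 2 fell and 6 did not pass. The calls of Ugt1a6, Ugt1a1, Ugt1a5 and Ugdh held in all 8 fits that left out a library, and Ugt1a7c kept its call only without LA replicate 1 or PF replicate 4 (highest adjusted p 0.105). Ugt1a1 lost its call with all 16 libraries in 1 model (adjusted p = 0.0621) and Ugt1a7c with no filter on low values (adjusted p = 0.0987).

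NRF2 is the transcription factor that switches on antioxidant and conjugating genes when electrophiles modify its inhibitor KEAP1. Of 23 tested genes on a list of its targets, 6 rose, 1 fell and 16 had no call, the list median being 0.23 on the log2 scale (0.15 without PF replicate 3), beside 2.27% risen and 2.21% fallen over all genes. Akr7a3, an aldehyde reductase known for detoxifying aflatoxin dialdehyde, was at 48.9, 34.4, 36.2 and 51.4 FPKM in PF replicates 1 to 4 and 115, 192, 203 and 161 FPKM in LA replicates 1 to 4. This was a rise of 1.94 on the log2 scale (SE 0.19, adjusted p = 0.000451), and every LA library lay far above the highest PF library. Gstp1, the pi-class glutathione transferase, was at 18.8, 18.9, 16.3 and 20.9 FPKM under PF and 23.4, 60.8, 47.3 and 56.9 FPKM under LA. It rose (log2 fold change 1.20, SE 0.25, adjusted p = 0.0208), with LA replicate 1 close to the PF range and the other LA libraries far above it. Gsta5, an alpha-class transferase with near copies in the genome, rose from 77.4 ± 41.6 to 172 ± 35.6 FPKM although PF replicate 4 lay inside the LA range. Of 20 glutathione transferases tested these 2 were the calls, and 0 were called without LA replicate 2, 3 or 4 or PF replicate 1, 2 or 3.

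Srxn1, which repairs overoxidised peroxiredoxins, was at 4.35, 3.28, 3.89 and 5.27 FPKM under PF and 6.66, 7.06, 7.50 and 8.96 FPKM under LA and rose (log2 fold change 0.72, SE 0.13, adjusted p = 0.0107). Gclm, the regulatory subunit of the enzyme that limits glutathione synthesis, was at 84.8, 78.2, 72.6 and 64.5 FPKM under PF and 113, 97.1, 107 and 92.0 FPKM under LA. It rose by 0.44 on the log2 scale, and its catalytic partner Gclc was at 51.2 ± 6.21 FPKM under PF and 60.3 ± 8.53 FPKM under LA (adjusted p = 0.300). Tkt, a transketolase of the pentose phosphate pathway that also answers to carbohydrate feeding, was the member that fell, from 178 ± 20.4 to 102 ± 4.59 FPKM. Other well-known targets did not pass, as Nqo1, a quinone reductase, was at 9.32 ± 0.669 FPKM under PF and 10.5 ± 1.48 FPKM under LA (adjusted p = 0.442), and Hmox1, the haem oxygenase, at 11.1 ± 3.25 FPKM under PF and 13.1 ± 1.86 FPKM under LA (adjusted p = 0.478). Akr7a3, Srxn1 and Tkt kept their calls in all 8 fits with a library left out. Gstp1 kept its call only without LA replicate 1 or PF replicate 4 (highest adjusted p 0.0645), Gclm kept its call only without LA replicate 4 or PF replicate 1 (highest adjusted p 0.0762) and Gsta5 kept its call only without PF replicate 4 (highest adjusted p 0.109). Tkt lost its call with all 16 libraries in 1 model (adjusted p = 0.0926), Gstp1, Gsta5 and Gclm with no filter on low values (highest adjusted p 0.110), Gsta5 without the trend option (adjusted p = 0.0532) and Gsta5 with a pseudocount of 0.1 (adjusted p = 0.0510). The sixth member that rose, Abcc4, is given with the transporters. Without LA replicate 2, or without PF replicate 2, 3 of the 23 members passed.

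Promoters of members that rose are shown because NRF2 is known to bind a short element. The sequences are from RefSeq (GRCr8), 250 bases before to 50 after the gene start, read 5′ to 3′ on the gene's strand. Capitals mark matches to TGACNNNGC, the core of that element, on either strand. The Gclm window lies on the plus strand at chr2:213031885-213032184 and the Gstp1 window on the minus strand at chr1:210769656-210769955.
Gclm: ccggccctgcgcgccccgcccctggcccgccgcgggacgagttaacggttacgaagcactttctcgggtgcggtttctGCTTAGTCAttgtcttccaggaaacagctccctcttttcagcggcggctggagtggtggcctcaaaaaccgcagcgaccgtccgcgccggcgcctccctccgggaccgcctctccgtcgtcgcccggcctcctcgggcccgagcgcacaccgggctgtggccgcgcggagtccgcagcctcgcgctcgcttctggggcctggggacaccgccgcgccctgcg
Gstp1: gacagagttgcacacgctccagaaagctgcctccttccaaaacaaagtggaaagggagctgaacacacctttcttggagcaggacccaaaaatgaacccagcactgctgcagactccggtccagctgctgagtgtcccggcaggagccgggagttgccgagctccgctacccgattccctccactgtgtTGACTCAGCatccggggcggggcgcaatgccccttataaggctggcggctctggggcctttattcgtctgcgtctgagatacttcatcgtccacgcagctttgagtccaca
The match begins 172 bases before the start in Gclm and 61 bases before it in Gstp1. Among all 33469 windows of 300 bases in the table, 12.1% hold such a match. Of the 18 tested list members with a window, 7 hold one, and of the 7 members that passed Gclm and Gstp1 do. Akr7a3, Srxn1, Abcc4, Gsta5 and Tkt hold no such letters in this window.

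Among 23 tested cytochromes P450 of families 1 to 3, 1 rose, 2 fell and 20 did not pass, with a list median of -0.04. Over all genes 2.27% rose and 2.21% fell. Cyp3a9 rose from 68.8 ± 8.65 to 112 ± 22.5 FPKM, with LA replicate 2 inside the PF range. Cyp2a2, a steroid hydroxylase, fell from 334 ± 50.9 to 235 ± 19.2 FPKM, and Cyp2c23, which makes epoxides of arachidonic acid, fell from 873 ± 62.6 to 627 ± 102 FPKM. Cyp3a18 did not pass at 84.7, 59.3, 26.05 and 141 FPKM under PF and 181, 211, 183 and 194 FPKM under LA, where every LA library was above the PF libraries but the PF libraries spread widely (adjusted p = 0.0523). Nr1i3, the nuclear receptor CAR that senses drugs and steroids, was at 2.97, 3.76, 2.58 and 2.37 FPKM under PF and 4.78, 8.50, 4.08 and 7.10 FPKM under LA and rose (log2 fold change 0.83, SE 0.19, adjusted p = 0.0357). It was the 1 member of 31 nuclear receptors and co-regulators that passed, beside 4.48% of all genes. Each of the 4 calls depended on single libraries. Cyp3a9 kept its call only without LA replicate 2 or PF replicate 4 (highest adjusted p 0.0768), Cyp2a2 kept its call only without PF replicate 3 (highest adjusted p 0.106), Cyp2c23 kept its call only without LA replicate 1 (highest adjusted p 0.122), and Nr1i3 kept its call only without LA replicate 1 or 3 or PF replicate 2 (highest adjusted p 0.0919). Cyp2a2 and Cyp2c23 lost their calls with all 16 libraries in 1 model (highest adjusted p 0.545) and Cyp3a9, Cyp2a2, Cyp2c23 and Nr1i3 with no filter on low values (highest adjusted p 0.0951).

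Of 16 tested transporters of drugs and organic ions, 2 rose and 2 fell. Abcb1a, the efflux pump P-glycoprotein, rose from 1.98 ± 0.621 to 3.81 ± 0.434 FPKM, and Abcc4, an exporter of organic anions on the blood side of hepatocytes, rose from 0.952 ± 0.121 to 1.796 ± 0.407 FPKM. Abcg2, an efflux pump for urate and sulphated conjugates, fell from 7.12 ± 1.34 to 4.43 ± 0.793 FPKM. Groups did not overlap for any of these 3 genes. Abcb1a lost its call without LA replicate 2 or 4 or PF replicate 2 (highest adjusted p 0.0787), Abcc4 kept its call only without LA replicate 1 or 3 or PF replicate 4 (highest adjusted p 0.0939) and Abcg2 kept its call only without LA replicate 3 or PF replicate 3 (highest adjusted p 0.0982). Abcb1a, Abcc4 and Abcg2 lost their calls with no filter on low values (highest adjusted p 0.0907). Without LA replicate 2, and without PF replicate 2, 0 of the 16 passed with limma, beside 9 with an unadjusted p under 0.05 in the fit of all libraries.

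**Figure D2:**
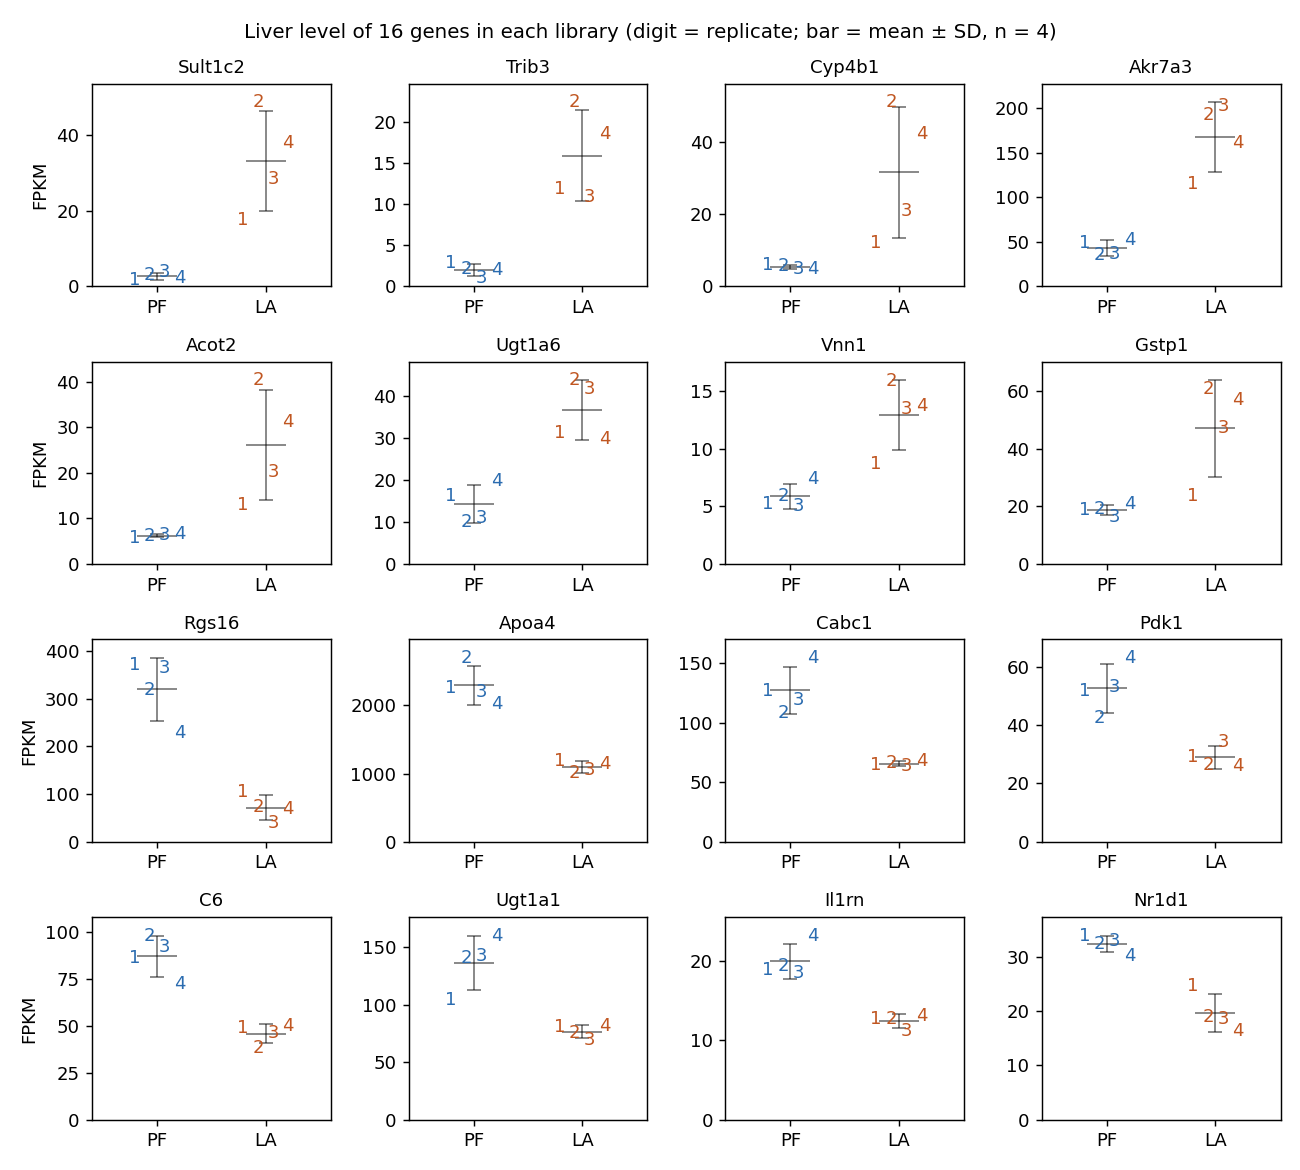
Liver FPKM (y axes, from 0) of 16 genes in each PF and LA library, where a digit is the replicate number and the bar the mean ± SD of 4 libraries. The top 8 genes rose and the lower 8 fell under LA, and Sult1c2, Cyp4b1 and Acot2 show LA replicates 2 and 4 above LA replicates 1 and 3.

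PPARα is the receptor through which fatty acids and fibrate drugs induce genes of fat oxidation in liver. Of 34 tested targets, 8 rose, 0 fell and 26 had no call, where 2.27% of all genes rose and 2.21% fell. The list median was 0.25 on the log2 scale, and 28 of the 34 were higher in the mean. The reference list of fatty acid oxidation, which shares members with this list, held 23 tested genes, of which 2 rose and 1 fell. The 2 that rose, Acot2 and Slc25a20, are already counted among the 8. The median of the reference list was 0.002, with 12 members higher and 11 lower in the mean. Acot2, a mitochondrial thioesterase that frees fatty acids from coenzyme A, was at 5.75, 6.02, 6.26 and 6.53 FPKM in PF replicates 1 to 4 and 12.98, 40.4, 20.2 and 31.2 FPKM in LA replicates 1 to 4. It rose (log2 fold change 1.81, SE 0.27, adjusted p = 0.00500), and the PF libraries differed by less than 1 FPKM while the LA libraries spread widely, highest in replicates 2 and 4. Its cytosolic relative Acot1 was listed at 0, 0, 0 and 0.107 FPKM under PF and 0.224, 8.09, 1.27 and 11.3 FPKM under LA and was below the level for testing. The peroxisomal thioesterase Acot3 rose from 3.29 ± 0.259 to 6.35 ± 1.99 FPKM, and the 3 genes can share reads.

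Omega-hydroxylases of the Cyp4a group, which begin the breakdown of fatty acids from the far end, were higher as well. Cyp4a10 was at 75.5, 69.9, 72.8 and 83.5 FPKM under PF and 98.6, 114, 96.6 and 118 FPKM under LA and rose (log2 fold change 0.49, SE 0.089, adjusted p = 0.0129), and Cyp4a3 rose from 126 ± 8.08 to 175 ± 16.7 FPKM. Cyp4a2 was at 24.3, 4.09, 24.6 and 19.8 FPKM under PF and 28.0, 108, 54.4 and 107 FPKM under LA, without overlap but with a wide spread (log2 fold change 2.03, SE 0.55, adjusted p = 0.0650). Vnn1, which releases cysteamine from pantetheine, rose from 5.86 ± 1.05 to 12.9 ± 3.05 FPKM, and Pex11a, which drives the division of peroxisomes, rose from 6.85 ± 1.89 to 11.0 ± 0.719 FPKM. The lysosomal glycoprotein Creg1 rose from 128 ± 7.46 to 177 ± 17.0 FPKM, and the mitochondrial carnitine carrier Slc25a20 rose from 62.3 ± 2.99 to 77.7 ± 4.15 FPKM. Fabp1, the abundant fatty acid binding protein of liver, went the other way at 11154 ± 2232 FPKM under PF and 8589 ± 328 FPKM under LA and did not pass (adjusted p = 0.217). Acot2, Vnn1, Cyp4a10, Cyp4a3 and Creg1 passed in all 8 fits with a library left out. Acot3 kept its call only without LA replicate 1 (highest adjusted p 0.109), Pex11a kept its call only without PF replicate 2 or 3 (highest adjusted p 0.122) and Slc25a20 kept its call only without LA replicate 1 or PF replicate 2 (highest adjusted p 0.0911). Cyp4a10 and Cyp4a3 lost their calls with all 16 libraries in 1 model (highest adjusted p 0.134), Acot3 and Pex11a with no filter on low values (highest adjusted p 0.0982) and Pex11a with a pseudocount of 0.1 (adjusted p = 0.05003). Slc25a20 also lost its call with replicate number as a block. Without LA replicate 1, 12 of the 34 passed, and the count was 5 without LA replicate 2, 3 or 4 or PF replicate 1 or 4.

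Trib3 had the largest rise on the list of amino acid stress genes. It is a pseudokinase that is induced by ATF4, the transcription factor of amino acid shortage and ER stress, and binds the kinase AKT. Its level was 2.81, 2.11, 0.975 and 1.92 FPKM in PF replicates 1 to 4 and 11.8, 22.5, 10.9 and 18.6 FPKM in LA replicates 1 to 4. All LA libraries were above all PF libraries (log2 fold change 2.50, SE 0.24, adjusted p = 0.000451). Phgdh, the first enzyme of serine synthesis, was at 0.108, 0.323, 0.0467 and 0.184 FPKM under PF and 1.39, 5.44, 1.98 and 3.90 FPKM under LA. Its fitted difference was a log2 fold change of 1.74 (adjusted p = 0.00554). As all PF libraries lay below 1 FPKM, it met the level for testing through the LA libraries alone and had no test without any 1 of them, and with no filter on low values its adjusted p was 0.0222. Slc3a2, the heavy chain of amino acid exchangers, rose from 28.2 ± 3.21 to 43.7 ± 4.97 FPKM, and the tryptophanyl-tRNA synthetase Wars rose from 7.61 ± 0.290 to 9.82 ± 0.377 FPKM. Aldh1l2, a mitochondrial folate enzyme, fell from 80.3 ± 5.30 to 60.4 ± 7.66 FPKM.

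Of 30 tested ATF4 genes, 4 rose, Phgdh included, 1 fell and 25 had no call, against shares of 2.27% and 2.21% over all genes. The list median was 0.06 on the log2 scale. Asns, the asparagine synthetase, was at 2.29 ± 0.717 FPKM under PF and 3.16 ± 0.794 FPKM under LA (adjusted p = 0.313), and Ddit3, the factor CHOP, at 12.9 ± 2.40 FPKM under PF and 16.8 ± 3.40 FPKM under LA (adjusted p = 0.228). None of 26 ER chaperones and genes of the unfolded protein response passed with limma, where 3 were lower at an unadjusted p under 0.05, the list median was 0.00, and Hspa5, the chaperone BiP, was at 305 ± 33.4 FPKM under PF and 289 ± 12.0 FPKM under LA. Trib3 and Slc3a2 kept their calls with each library left out. Wars lost its call without LA replicate 2 or 3 or PF replicate 1 (highest adjusted p 0.0745), and Aldh1l2 kept its call only without LA replicate 4 (highest adjusted p 0.103). With all 16 libraries in 1 model Aldh1l2 had an adjusted p of 0.167, and with no filter on low values 0.0651. The promoter of Trib3 is shown because ATF4 with its partners is known to bind a composite element there in other mammals. It lies on the minus strand at chr3:161275484-161275783 (RefSeq, GRCr8), and capitals mark the match to TGATGNAA, here on the opposite strand of the one printed, beginning 21 bases before the start.
Trib3: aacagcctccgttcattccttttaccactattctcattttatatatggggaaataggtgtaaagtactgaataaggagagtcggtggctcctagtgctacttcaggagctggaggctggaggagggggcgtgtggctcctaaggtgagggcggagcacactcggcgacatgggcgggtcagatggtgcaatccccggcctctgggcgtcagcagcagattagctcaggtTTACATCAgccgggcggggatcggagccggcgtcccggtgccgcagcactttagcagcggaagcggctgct
Of all 33469 windows 3.98% hold such letters, and of the 21 tested list members with a window 4 hold them, which are Trib3, Nupr1, Fgf21 and Pck2. Phgdh and Slc3a2 do not in this window.

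Heat shock proteins were higher in all 13 tested members, the list median being 0.28 (0.13 without PF replicate 4), and 2 passed. Hspa9, despite the list's name the Hsp70 of mitochondria, was at 204, 193, 218 and 239.7 FPKM under PF and 268, 335, 300.4 and 302 FPKM under LA (log2 fold change 0.49, SE 0.094, adjusted p = 0.0161). Bag3, a co-chaperone of selective autophagy, was at 6.59, 6.55, 7.51 and 6.42 FPKM under PF and 9.15, 8.79, 8.90 and 9.97 FPKM under LA (log2 fold change 0.39, SE 0.076, adjusted p = 0.0166). Groups did not overlap for either. Hspa9 lost its call without LA replicate 2 or PF replicate 1 (highest adjusted p 0.0531) and Bag3 lost its call without PF replicate 1 (highest adjusted p 0.0519), so that 0 of 13 passed without PF replicate 1. The 33 tested cytosolic ribosomal proteins were higher in the mean in 32 cases, with a median of 0.19, and 0 passed with limma, beside 14 at an unadjusted p under 0.05 and 3 that passed without LA replicate 1. Rps6 is an example at 448, 467, 416 and 416 FPKM under PF and 479, 642, 552 and 639 FPKM under LA (adjusted p = 0.0620).

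The lists of coagulation, complement, serpins and acute phase proteins together hold 85 tested genes, of which 21 fell, 0 rose and 64 did not pass, beside 2.21% fallen and 2.27% risen over all genes. Of the 21, all but Vkorc1, an ER enzyme of the vitamin K cycle, encode secreted proteins. The median log2 fold change of the 85 was -0.27, and 68 of the 85 were lower in the mean. Of the 85, 6 are also hepatocyte markers and 3 are macrophage markers, and the hepatocyte marker list had a median of -0.30 in the same livers. Falls were also more frequent among abundant genes in general, since of the 757 genes at 100 FPKM or more 67 fell and 12 rose, with a median of -0.10. The part of these in the result was not tested. Leaving out 1 library changed the number of calls per list, with 2 in each of the coagulation and complement lists without LA replicate 2 or PF replicate 2, and 8 of the 21 genes passed in all 8 such fits. With all 16 libraries in 1 model, 2 of the 21 passed, C6 and Vkorc1, the highest adjusted p of the others being 0.607. With no filter on low values 13 of the 21 passed, without Plg, C9, Cfb, Serpina11, Fga, Fgg, Itih4 and Mug1 (highest adjusted p 0.0737). With replicate number as a block 11 of the 21 passed (highest adjusted p 0.106).

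Coagulation genes fell in 7 of 21 cases and rose in 0, with a median of -0.30. F12, the factor that starts the contact pathway, was at 345, 367, 329 and 321 FPKM under PF and 266, 229.6, 221 and 264 FPKM under LA and fell (log2 fold change -0.47, SE 0.087, adjusted p = 0.0137). Serpinf2, the antiplasmin that protects clots from digestion, was at 310.3, 338, 295 and 292 FPKM under PF and 233, 189.6, 193 and 234 FPKM under LA and fell (log2 fold change -0.54, SE 0.095, adjusted p = 0.0113). F10, at which the intrinsic and extrinsic pathways meet, fell from 283 ± 5.38 to 210.3 ± 23.2 FPKM, and Vkorc1, the vitamin K reductase that warfarin blocks, fell from 259.5 ± 27.5 to 184 ± 20.1 FPKM. F13b fell from 139.8 ± 6.57 to 109.5 ± 7.90 FPKM, Serpind1, a thrombin inhibitor, fell from 410.2 ± 27.2 to 316 ± 22.3 FPKM, and Plg, the precursor of plasmin, fell from 1034 ± 70.9 to 772 ± 76.6 FPKM.  F2, prothrombin, was at 1083 ± 103 FPKM under PF and 823 ± 80.0 FPKM under LA without overlap and did not pass (adjusted p = 0.0564). F12 and Serpinf2 kept their calls with each library left out. F10 lost its call without LA replicate 2 or PF replicate 1 or 2 (highest adjusted p 0.0591), Vkorc1 lost its call without LA replicate 2 or 4 or PF replicate 1 or 2 (highest adjusted p 0.0738), F13b kept its call only without LA replicate 4 or PF replicate 3 or 4 (highest adjusted p 0.0772), Plg kept its call only without LA replicate 1 or 4 or PF replicate 3 (highest adjusted p 0.0949) and Serpind1 kept its call only without LA replicate 4 or PF replicate 1 (highest adjusted p 0.0822).

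Complement showed 5 genes that fell of 26, and 0 that rose, with a median of -0.25. C6, a part of the membrane attack complex, was at 86.2, 97.7, 92.2 and 72.3 FPKM in PF replicates 1 to 4 and 48.7, 38.4, 46.0 and 50.03 FPKM in LA replicates 1 to 4. It fell (log2 fold change -0.91, SE 0.11, adjusted p = 0.00171), and every LA library was below every PF library. C8g, of the same complex, fell from 396 ± 50.5 to 258 ± 24.0 FPKM, and C9, which forms its pore, fell from 581 ± 53.5 to 435 ± 32.7 FPKM. Cfi, the protease that inactivates C3b, fell from 411 ± 44.0 to 293 ± 27.7 FPKM, and Cfb, of the alternative pathway, fell from 611 ± 28.6 to 479 ± 39.5 FPKM. The C1q chain gene C1qb, which macrophages make, was at 34.5 ± 2.49 FPKM under PF and 49.1 ± 10.1 FPKM under LA and did not pass (adjusted p = 0.0588). C6 and C8g passed in all 8 fits that left out a library. Cfi lost its call without LA replicate 2 or 3 or PF replicate 2 (highest adjusted p 0.0662), C9 kept its call only without LA replicate 1 or 3 or PF replicate 3 (highest adjusted p 0.0923) and Cfb kept its call only without LA replicate 1 (highest adjusted p 0.109).

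Serpins fell in 6 of 21 cases, 2 of which are the clotting inhibitors above, and 0 rose. Serpina4, kallistatin, was at 1234, 1338, 1337 and 1288 FPKM under PF and 958, 735, 860.4 and 771 FPKM under LA and fell (log2 fold change -0.65, SE 0.099, adjusted p = 0.00562). Serpina3m was at 491, 617, 530.0 and 538 FPKM under PF and 374, 337, 336 and 351 FPKM under LA and fell (log2 fold change -0.63, SE 0.087, adjusted p = 0.00338). Serpina10, which inhibits factor X with protein Z, fell from 222 ± 4.94 to 169 ± 10.2 FPKM, and Serpina11 fell from 98.0 ± 12.9 to 67.2 ± 9.42 FPKM. Serpina7, the thyroxine-binding globulin, went the other way at 1.104, 0.827, 1.44 and 1.74 FPKM under PF and 2.66, 21.1, 3.54 and 27.9 FPKM under LA. Its LA values lay above all PF values and were high in replicates 2 and 4, and it did not pass (log2 fold change 2.17, SE 0.59, adjusted p = 0.0654). Serpina4, Serpina3m and Serpina10 kept their calls in each fit with a library left out, and Serpina11 kept its call only without LA replicate 1 or 4 or PF replicate 4 (highest adjusted p 0.0923).

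Among 24 tested acute phase proteins, 6 fell, 0 rose and 18 had no call, the list median being -0.34. Apcs, serum amyloid P, was at 1474, 1527, 1387 and 1243 FPKM under PF and 993, 920.2, 1033 and 986 FPKM under LA and fell (log2 fold change -0.51, SE 0.092, adjusted p = 0.0125). Besides Serpina3m, the fibrinogen chains Fga and Fgg fell, from 2105 ± 268 to 1448 ± 112 FPKM and from 2454 ± 278 to 1724 ± 98.4 FPKM, the third chain Fgb being at 2594 ± 299 FPKM under PF and 1923 ± 169 FPKM under LA (adjusted p = 0.0580). Itih4 fell from 1376 ± 83.2 to 1024 ± 85.6 FPKM, and Mug1, a rat protease inhibitor of the macroglobulin type with near copies, fell from 464 ± 50.4 to 289 ± 68.9 FPKM with LA replicate 1 level with PF replicate 3. Haptoglobin, Hp, did not pass at 7115 ± 487 FPKM under PF and 5642 ± 855 FPKM under LA (adjusted p = 0.178). Apcs passed with each library left out. Fgg lost its call without LA replicate 2 or 3 or PF replicate 1 or 2 (highest adjusted p 0.0700), Fga kept its call only without LA replicate 1 or PF replicate 3 or 4 (highest adjusted p 0.0706), Itih4 kept its call only without LA replicate 1 or 4 (highest adjusted p 0.0761) and Mug1 kept its call only without LA replicate 1 or PF replicate 3 (highest adjusted p 0.0775).

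**Figure D3:**
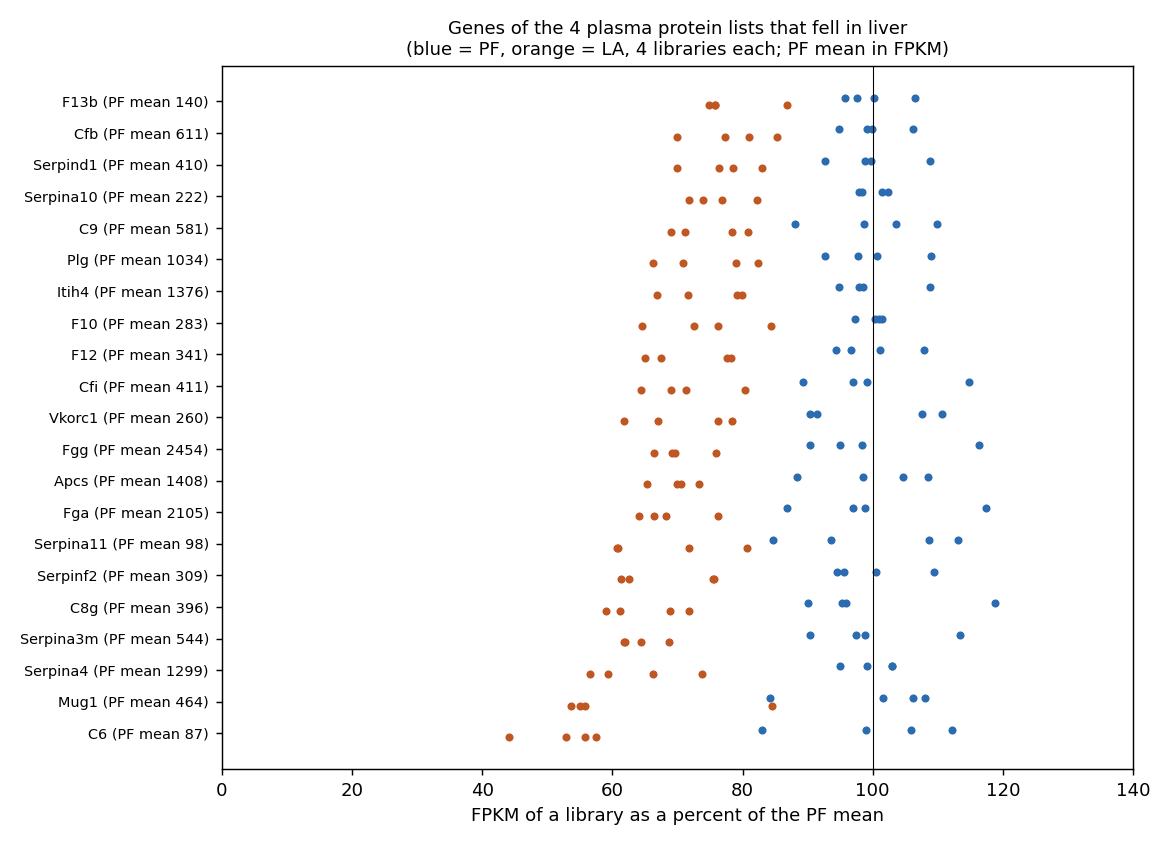
Each row is 1 of the 21 genes of the plasma protein lists that fell, with the FPKM of each library as a percent of the gene's PF mean (blue PF, orange LA, 4 libraries each). LA values lie between 44.1% and 86.8% and PF values at 83.0% or more, and only for Mug1 do the groups overlap.

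Apoa4, an apolipoprotein that is secreted on lipoproteins, was among the 15 largest falls. Its level was 2249, 2698, 2199 and 2026 FPKM in PF replicates 1 to 4 and 1181, 1003, 1053 and 1147 FPKM in LA replicates 1 to 4. No LA library reached the lowest PF library (log2 fold change -1.06, SE 0.11, adjusted p = 0.000701). Rgs16, a brake on G protein signalling, fell from 319.6 ± 65.7 to 71.3 ± 26.2 FPKM (log2 fold change -2.20). Cabc1, known as Coq8a, a kinase-like protein of coenzyme Q synthesis, was at 127, 108, 119 and 154 FPKM under PF and 64.2, 66.0, 63.9 and 68.1 FPKM under LA and fell (log2 fold change -0.93, SE 0.10, adjusted p = 0.000963). Ky, a gene known from muscle, was at 1.21, 1.22, 2.60 and 1.13 FPKM under PF and 0.204, 0.0262, 0.0824 and 0.0503 FPKM under LA (log2 fold change -1.19, SE 0.16, adjusted p = 0.00338). Rprm, a gene of cell cycle arrest, went from 2.48 ± 0.808 to 0.667 ± 0.219 FPKM. Ky and Rprm met the level for testing through the PF libraries alone, and with no filter on low values their adjusted p were 0.0118 and 0.0291.

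Ephb6, an ephrin receptor without kinase activity, fell from 5.68 ± 1.79 to 2.28 ± 0.497 FPKM, and Ttc25, of the docking of dynein in cilia, fell from 10.5 ± 3.35 to 4.65 ± 1.03 FPKM. Dixdc1, of Wnt signalling, fell from 7.58 ± 1.72 to 3.48 ± 0.701 FPKM, and Marveld1, a membrane protein, fell from 13.3 ± 3.26 to 6.51 ± 1.20 FPKM. C6, described above, and Pnpla3, Pnpla5, Scd1, Elovl6 and Acly of the lipogenesis list complete the 15. Of the genes outside that list, Ttc25 lost its call without LA replicate 2 (highest adjusted p 0.0599), and Ky and Rprm had no test in fits without a PF library. Apoa4 lost its call with all 16 libraries in 1 model (adjusted p = 0.288) and Ttc25 with no filter on low values (adjusted p = 0.0527). Apoa4, Rgs16, Cabc1, Ephb6, Dixdc1, Marveld1 and C6 kept their calls with each library left out. For comparison, the lipogenesis list had 8 of 17 members that fell and a median of -0.79.

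Among the 15 largest rises, 9 were interferon-induced genes, and the list of interferon response had 25 of 41 members that rose, 0 that fell and a median of 0.74. The 6 others were Sult1c2, Trib3, Akr7a3, Acot2, Cyp4b1 and Prkcdbp. Of the 9, Rsad2 met the level for testing through the LA libraries alone. With no filter on low values its adjusted p with limma was 0.00221. Cyp4b1, a cytochrome P450 that oxidises medium-chain fatty acids and foreign amines, was at 5.96, 5.46, 4.70 and 4.79 FPKM under PF and 12.1, 51.2, 21.01 and 42.4 FPKM under LA. It rose without overlap (log2 fold change 2.20, SE 0.36, adjusted p = 0.00769), LA replicate 1 being the lowest of its group, and the call held with each library left out. Prkcdbp, also called Cavin3, a coat protein of caveolae, was at 35.5, 15.8, 8.53 and 19.5 FPKM under PF and 58.4, 56.1, 92.9 and 46.2 FPKM under LA (log2 fold change 1.74, SE 0.35, adjusted p = 0.0187), and it lost its call without LA replicate 2 or PF replicate 2 (highest adjusted p 0.0542). Prkcdbp is abundant in fat, at 162 ± 25.2 FPKM under PF and 175 ± 12.6 FPKM under LA, while the 9 adipocyte markers in the files summed to between 10.75 and 16.99 FPKM under PF and between 8.21 and 12.6 FPKM under LA in liver. Of these 9, Adipoq, Lep, Plin, Retn and Adrb3 are listed at 0 in all 8 liver libraries, and of 3 tested 0 passed with limma, beside 2 higher and 1 lower at an unadjusted p under 0.05. Their part in this result was not tested. Prkcdbp lost its call with no filter on low values (adjusted p = 0.0572).

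**Figure D4:**
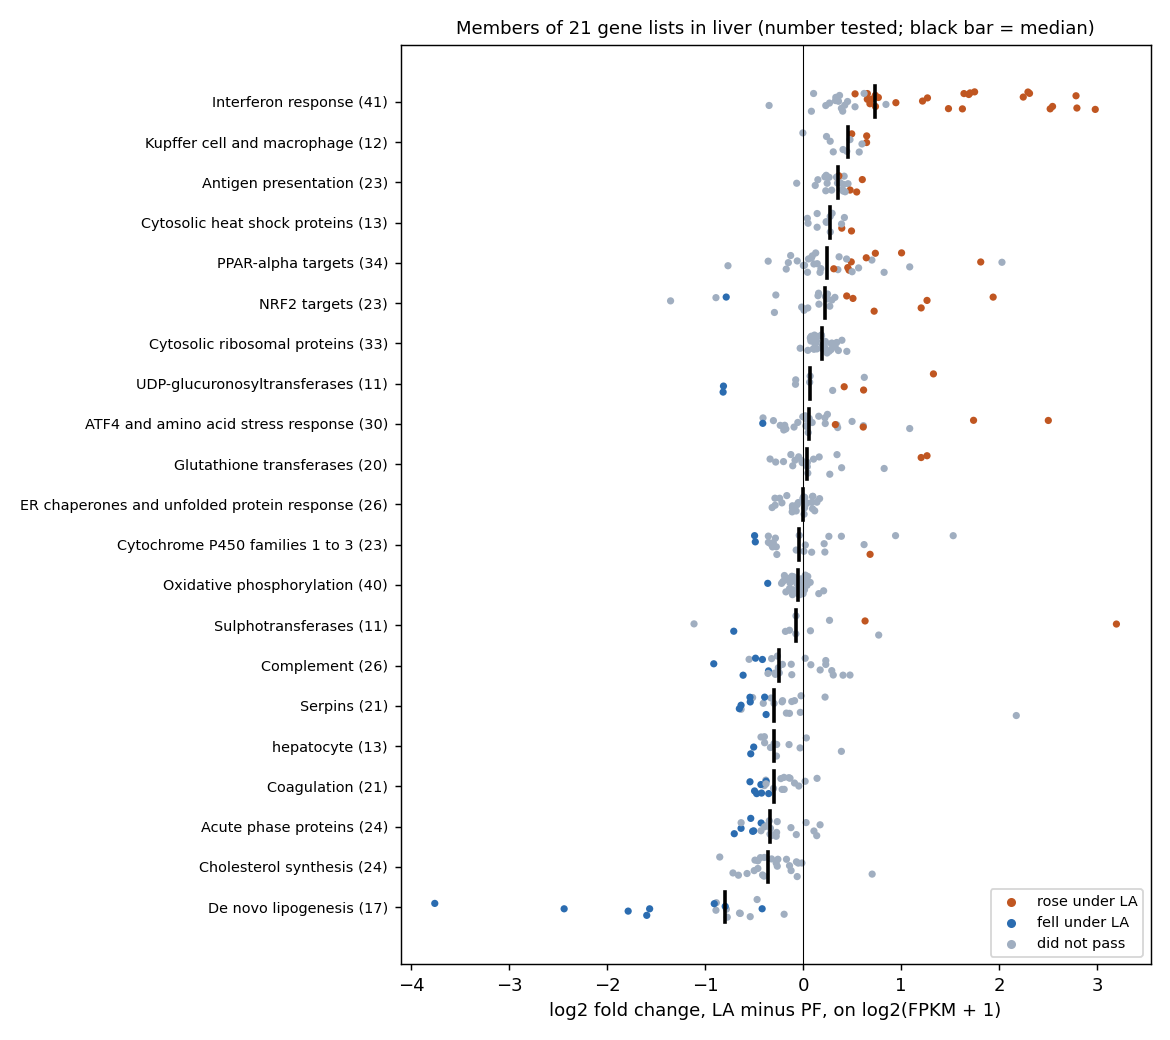
Log2 fold change, LA minus PF, of the tested members of 21 gene lists (number in parentheses), ordered by the median (black bar). Orange members rose, blue members fell and grey members did not pass. The medians run from -0.79 for lipogenesis to 0.74 for the interferon response, with the 4 plasma protein lists between -0.34 and -0.25.

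Chemokine and cytokine genes moved in both directions, with 3 of 33 that rose, Ccl19 included, and 4 that fell. Cxcl10, a chemokine for T cells that interferon induces, was at 1.12, 2.23, 2.18 and 2.93 FPKM under PF and 8.81, 8.87, 6.77 and 11.4 FPKM under LA and rose (log2 fold change 1.69, SE 0.19, adjusted p = 0.00105). Ccl19, a chemokine of lymphoid tissue, went from 0.702 ± 0.150 to 1.32 ± 0.110 FPKM. It met the level for testing through the LA libraries alone, and its adjusted p was 0.0248, or 0.0308 with no filter on low values. Il1rn, the antagonist of the interleukin-1 receptor, was at 18.8, 19.3, 18.4 and 23.1 FPKM under PF and 12.7, 12.7, 11.1 and 13.1 FPKM under LA and fell (log2 fold change -0.64, SE 0.088, adjusted p = 0.00338). Cxcl12, the ligand of Cxcr4, fell from 178 ± 14.98 to 113 ± 22.2 FPKM, Il33, an alarmin of tissue cells, fell from 55.7 ± 13.9 to 33.2 ± 6.72 FPKM, and Ccl24, an eosinophil attractant, fell from 5.30 ± 0.680 to 3.47 ± 0.644 FPKM.  Cxcl10, Il1rn and Cxcl12 passed with each library left out. Ccl24 kept its call only without LA replicate 1 or 4 (highest adjusted p 0.110), Il33 kept its call only without LA replicate 1 or PF replicate 4 (highest adjusted p 0.126), and Ccl19 lost its call without PF replicate 1 or 2 (highest adjusted p 0.0629), with no test without an LA library. Ccl19 and Il1rn lost their calls with all 16 libraries in 1 model (highest adjusted p 0.361) and Il33 and Ccl24 with no filter on low values (highest adjusted p 0.0964).

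Antigen presentation genes were higher in 22 of 23 cases, with a median of 0.35, and 5 rose. Tap1, which carries peptides into the ER, was at 5.76, 7.18, 5.96 and 7.58 FPKM under PF and 12.8, 9.77, 8.87 and 11.0 FPKM under LA (log2 fold change 0.60, SE 0.12, adjusted p = 0.0181), and its partner Tapbp rose from 12.8 ± 0.877 to 16.7 ± 1.56 FPKM. The rat class I genes RT1-A3, RT1-T24-4 and RT1-N3 had log2 rises of 0.36, 0.48 and 0.55, while near copies in this family can share reads. Psmb9, a subunit of the immunoproteasome, rose from 23.2 ± 5.48 to 36.3 ± 4.60 FPKM, the 1 of 38 proteasome genes that passed, beside 4.48% of all genes. The macrophage marker genes Clec4f, Cd163 and Vsig4 rose in the same livers, with log2 fold changes of 0.65, 0.65 and 0.50, and the 14 markers of that list summed to between 241 and 277 FPKM under PF and between 320 and 480 FPKM under LA. Their part in these results was not tested. Tap1 lost its call without PF replicate 1 (highest adjusted p 0.0558), RT1-A3 lost its call without LA replicate 2 (highest adjusted p 0.0546), RT1-T24-4 lost its call without PF replicate 1 (highest adjusted p 0.0568), Tapbp kept its call only without LA replicate 3 or PF replicate 4 (highest adjusted p 0.118), RT1-N3 kept its call only without PF replicate 1 (highest adjusted p 0.0901) and Psmb9 kept its call only without LA replicate 3 or PF replicate 4 (highest adjusted p 0.102). Tapbp, RT1-A3, RT1-N3 and Psmb9 lost their calls with all 16 libraries in 1 model (highest adjusted p 0.211), Tapbp, RT1-N3, Psmb9, Cd163 and Vsig4 with no filter on low values (highest adjusted p 0.0930) and Tapbp without the trend option (adjusted p = 0.0506).

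Clock genes had 1 member of 16 that rose and 2 that fell, with a median of -0.21 (-0.12 without LA replicate 4 and -0.33 without LA replicate 1). Nr1d1, the repressor Rev-erbα, was at 33.8, 32.4, 32.8 and 30.2 FPKM under PF and 24.6, 18.8, 18.5 and 16.4 FPKM under LA and fell (log2 fold change -0.71, SE 0.11, adjusted p = 0.00609). Ccrn4l, nocturnin, a phosphatase of NADP+ with a strong daily rhythm, was at 3.32, 2.71, 2.07 and 3.26 FPKM under PF and 9.25, 5.41, 5.59 and 7.07 FPKM under LA and rose (log2 fold change 1.01, SE 0.16, adjusted p = 0.00675). Bhlhe40, a repressor of the clock, fell from 56.0 ± 14.01 to 33.7 ± 5.14 FPKM, and it kept its call only without PF replicate 1 or 3 (highest adjusted p 0.1001). Nr1d1 and Ccrn4l kept their calls with each library left out. Bhlhe40 lost its call with no filter on low values (adjusted p = 0.0981).

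Of the lipoate-dependent complexes themselves, 1 of 21 genes rose and 1 fell, beside 2.27% risen and 2.21% fallen over all genes. Pdk1, a kinase that inactivates pyruvate dehydrogenase, was at 51.8, 42.4, 53.1 and 63.1 FPKM under PF and 29.0, 26.5, 34.3 and 25.9 FPKM under LA and fell (log2 fold change -0.84, SE 0.12, adjusted p = 0.00500). Ogdh, of the 2-oxoglutarate dehydrogenase, rose from 31.8 ± 1.73 to 39.5 ± 1.70 FPKM, and it kept its call only without PF replicate 3 (highest adjusted p 0.1005). Methionine metabolism had Mat2a, the S-adenosylmethionine synthetase that adult hepatocytes hold at a low level, as the 1 of 22 that rose. It was at 6.39, 7.38, 6.01 and 8.44 FPKM under PF and 13.1, 18.6, 16.6 and 11.4 FPKM under LA (log2 fold change 0.97, SE 0.15, adjusted p = 0.00554), and the groups did not overlap. Gamt, which methylates guanidinoacetate to creatine, fell from 367 ± 19.0 to 276 ± 24.5 FPKM, and it lost its call without LA replicate 2 or 3 or PF replicate 1 or 2 (highest adjusted p 0.0590). Mat2a and Pdk1 kept their calls with each library left out. Ogdh lost its call with all 16 libraries in 1 model (adjusted p = 0.163). Ogdh and Gamt also lost their calls with replicate number as a block.

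In iron and haem handling, Tfrc, the transferrin receptor, rose from 11.6 ± 1.66 to 22.9 ± 6.05 FPKM, while 2 enzymes of haem synthesis fell, Ppox from 16.9 ± 1.67 to 10.7 ± 1.64 FPKM and Alad from 119.8 ± 3.49 to 95.9 ± 3.06 FPKM, of 33 genes tested. Over all genes 2.27% rose and 2.21% fell. Tfrc kept its call only without LA replicate 1 or PF replicate 3 or 4 (highest adjusted p 0.0834), Alad lost its call without LA replicate 2 or PF replicate 1 (highest adjusted p 0.0632) and Ppox kept its call in all 8 fits. Of 20 genes of bile acid synthesis and transport, 2 fell, beside 2.21% of all genes. These were Slc27a5, which activates bile acids for conjugation, from 251 ± 25.99 to 165 ± 30.5 FPKM, and Scp2, a sterol carrier, from 785 ± 44.7 to 585 ± 73.5 FPKM. Cyp7a1, the rate-limiting enzyme of that pathway, was at 141 ± 53.6 FPKM under PF and 110.1 ± 48.9 FPKM under LA (adjusted p = 0.587). Slc27a5 kept its call only without LA replicate 3 or 4 or PF replicate 3 (highest adjusted p 0.0705) and Scp2 kept its call only without LA replicate 4 (highest adjusted p 0.105). Alad, Slc27a5 and Scp2 lost their calls with all 16 libraries in 1 model (highest adjusted p 0.173) and Tfrc, Slc27a5 and Scp2 with no filter on low values (highest adjusted p 0.0766).

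On lipid droplets, Pnpla2, the lipase ATGL that opens triglyceride breakdown, rose from 14.2 ± 1.93 to 20.7 ± 1.63 FPKM, while its co-activator Abhd5 fell from 24.4 ± 1.39 to 17.8 ± 1.599 FPKM, the 2 of 11 members that passed. Pnpla2 lost its call without LA replicate 2 (highest adjusted p 0.0629), and Abhd5 kept its call in all 8 fits. Of 20 genes of glucose output and glycogen, Pygl, the liver glycogen phosphorylase, fell from 143 ± 10.04 to 111 ± 7.93 FPKM and Gcgr, the glucagon receptor, fell from 77.1 ± 5.11 to 61.0 ± 3.93 FPKM. Among 29 redox genes, Prdx4, the peroxiredoxin of the ER, fell from 185 ± 20.05 to 137 ± 11.3 FPKM and Chac2, which degrades glutathione, fell from 20.6 ± 2.73 to 15.3 ± 1.26 FPKM. Ndufa1, a subunit of complex I, fell from 114 ± 8.08 to 88.3 ± 2.92 FPKM, the 1 of 40 respiratory chain genes that passed, beside 4.48% of all genes. Pygl kept its call only without LA replicate 1 or PF replicate 2 (highest adjusted p 0.0925), Gcgr kept its call only without LA replicate 1 or PF replicate 4 (highest adjusted p 0.102), Prdx4 kept its call only without LA replicate 4 or PF replicate 4 (highest adjusted p 0.0816), Chac2 kept its call only without PF replicate 4 (highest adjusted p 0.142) and Ndufa1 lost its call without LA replicate 2 or 3 (highest adjusted p 0.0555). Pygl, Gcgr and Ndufa1 lost their calls with all 16 libraries in 1 model (highest adjusted p 0.411), Prdx4 and Chac2 with no filter on low values (highest adjusted p 0.0871), Chac2 without the trend option (adjusted p = 0.0589) and Chac2 with a pseudocount of 0.1 (adjusted p = 0.0508).

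Several large lists had 0 members that passed with limma. These were amino acid breakdown (41 tested, 9 at an unadjusted p under 0.05), the urea cycle (9 tested, 2), cholesterol synthesis (24 tested, 8), insulin, IGF and growth hormone signalling (26 tested, 4), the cell cycle (20 tested, 3), extracellular matrix (23 tested, 3) and immediate early genes (18 tested, 8). In cholesterol synthesis 23 of 24 members were lower in the mean, with a median of -0.36 (-0.22 without LA replicate 1 or 2 and -0.23 without PF replicate 4). Without LA replicate 3, 4 of the 24 passed. Immediate early genes were lower in 16 of 18 cases, with a median of -0.29 (-0.09 without PF replicate 4), and 2 passed without LA replicate 1. In amino acid breakdown, the cell cycle and insulin signalling, 1 member passed without PF replicate 3, and in the first also without LA replicate 2 or 4.

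The diet effect in liver was compared with that in epididymal fat of the same 8 rats over 12079 genes. Which liver and fat library come from 1 animal is not given in the sources used here, so the 16 libraries entered as independent. With limma, 46 genes (0.381%) differed between the tissues, of which 40 were also among the 435 liver genes, while in fat alone 2 of 11501 genes passed. Sult1c2, near 0 in fat at 0.132 ± 0.111 FPKM under PF and 0.0622 ± 0.0502 FPKM under LA, differed most among the liver genes outside lipogenesis (difference of the log2 effects 3.28, SE 0.33, adjusted p = 8.84e-05). At this level the scale understates any change in fat, and the difference rests mainly on the liver effect. Trib3 in fat was at 1.78 ± 0.768 FPKM under PF and 3.18 ± 1.26 FPKM under LA (difference of the log2 effects 1.91, SE 0.39, adjusted p = 0.0449). Acot2, at similar levels in both tissues of PF rats, was in fat at 8.67 ± 1.27 FPKM under PF and 8.68 ± 1.30 FPKM under LA (difference of the log2 effects 1.81, SE 0.33, adjusted p = 0.0260). Phgdh, low in PF liver and far more abundant in fat, was there at 80.4 ± 12.7 FPKM under PF and 68.0 ± 4.00 FPKM under LA (difference of the log2 effects 1.97, SE 0.32, adjusted p = 0.00863). Leaving out a liver library lowered the count of 46 to 22 for PF replicate 1 and to 24 for LA replicate 2.

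Ugt1a6, expressed in both tissues, was in fat at 39.0 ± 2.75 FPKM under PF and 40.0 ± 1.86 FPKM under LA (difference of the log2 effects 1.29, SE 0.24, adjusted p = 0.0268). Akr7a3 was in fat at 0.751 ± 0.201 FPKM under PF and 0.887 ± 0.436 FPKM under LA (difference of the log2 effects 1.86, SE 0.28, adjusted p = 0.00667). Here too the scale understates any change in fat. Cabc1 was in fat at 15.1 ± 0.572 FPKM under PF and 16.6 ± 2.63 FPKM under LA (difference of the log2 effects -1.05, SE 0.15, adjusted p = 0.00457). For Il1rn the means went in opposite directions, since it fell in liver and was in fat at 5.15 ± 0.837 FPKM under PF and 9.41 ± 3.96 FPKM under LA (difference of the log2 effects -1.34, SE 0.26, adjusted p = 0.0394). Acsf2 and Hsdl2, enzymes of fatty acid metabolism, rose in liver with log2 fold changes of 1.74 and 1.03, and the differences from fat were 1.70 and 1.08. These 2 genes were chosen after their values were seen, and their liver calls held with each library left out.

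**Figure D5:**
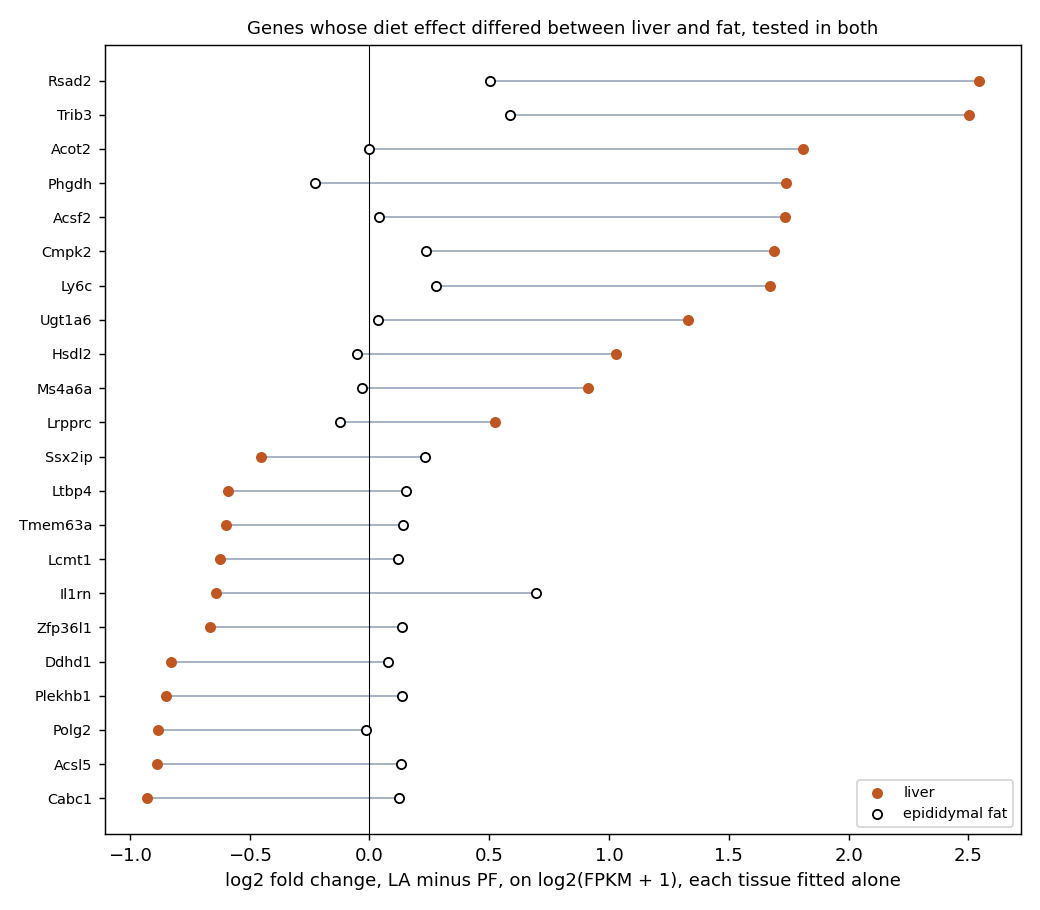
Log2 fold change, LA minus PF, in liver (filled) and epididymal fat (open) for 22 genes that were tested in each tissue and whose diet effects differed, without Scd1, which is listed at 0 in PF fat. Liver effects run from Cabc1 at -0.93 to Rsad2 at 2.54, and the largest fat effect in size is that of Il1rn at 0.70. Rsad2 and Phgdh reached 1 FPKM in liver under LA alone.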

How the data were processed

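RNA of liver and epididymal fat was extracted with TRIzol and RNeasy and made into TruSeq V2 libraries, per the labels' protocols. The deposited values are FPKM per gene symbol, computed by the authors with TopHat and Cuffdiff from CASAVA 1.8.2 base calls, per the submitters' processing notes and the file headers. Their genome build, gene annotation and settings are not stated in these sources. The kit does not mark strand, and reads of near-identical genes may be split between them. The headers number the replicates from 0 and the labels from 1. The files give no read counts, so depth is known only relative to PF replicate 1, from the smallest steps between values, and no counting interval is given.

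A gene was tested where 4 or more of the 8 liver libraries (or of all 16, for the tissue comparison) reached 1 FPKM. The test ran on log2(FPKM + 1) with limma 3.58.1 (R 4.3.3), with its trend option and p-values adjusted by Benjamini-Hochberg. Adjusted p-values are over all genes tested, and limma pools the spread over genes. The script was checked on simulated data. The gene lists and the members described were chosen with earlier results of these data known, so their counts are descriptions. The text names the 15 largest rises and falls among named genes that passed without overlap, up to 6 members of each list that passed, up to 3 of each reference list, and further list members with their values. Older symbols in the files were matched through RefSeq (GRCr8), which also gave the promoters. Alternatives were a pseudocount of 0.1, other filters, median centring, no trend, a replicate block, all 16 libraries in 1 model, and leaving out each liver library. Figures were drawn with matplotlib 3.10.9. Unnamed gene models were counted but not described, and a few genes within the counts are not reported here.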

Additional observations from a re-analysis of the deposited data

Results flagged for a closer look

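In 12 of 224 groups of 4 libraries, for the 112 genes named by rule and reported here, 1 library stood apart by Dixon's ratio, a rate that chance alone would give in about 1 of 20 groups. Under PF these were replicate 3 for Bag3 (7.51 FPKM), Cyp4a3 (114 FPKM) and Ky (2.60 FPKM), and replicate 2 for RT1-T24-4 (10.5 FPKM) and Tfrc (9.15 FPKM). Under LA they were replicate 1 for Mug1 (392 FPKM) and Tfrc (13.9 FPKM), replicate 2 for Cyp3a9 (78.7 FPKM) and Ogdh (42.0 FPKM), replicate 3 for Pnpla3 (37.5 FPKM), and replicate 4 for F13b (121 FPKM) and Slc25a20 (83.9 FPKM).

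The diet effect differed between liver and fat (limma, interaction term, adjusted p under 0.05) for 11 of the 112 genes. The log2 effect was more positive in liver for Sult1c2 by 3.28, Rsad2 by 2.04, Phgdh by 1.97, Trib3 by 1.91, Akr7a3 by 1.86, Acot2 by 1.81 and Ugt1a6 by 1.29. It was more negative in liver for Cabc1 (-1.05), Ky (-1.18), Il1rn (-1.34) and Scd1 (-12.10). Scd1 is listed at 0 in all 4 PF fat libraries, so its value has no lower anchor in fat. Whether these zeros are a level or a missing value is not known, so its difference is not read as a diet effect. In liver, Rsad2 and Phgdh reached 1 FPKM under LA alone and Ky under PF alone, so a difference was a condition of their liver test. Sult1c2 and Akr7a3 had mean levels under 1 FPKM in fat, where the scale understates any change.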

How the results depend on the processing

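In liver, the 435 genes at an adjusted p under 0.05 were 848 at an adjusted p under 0.1 and 68 with a log2 fold change over 1 in size as well. The count lay between 337 (no filter on low values) and 476 (replicate block) under the other settings, and leaving out 1 library each gave 208 to 404. For the difference between liver and fat, the 46 genes were 94 at an adjusted p under 0.1, 22 with no filter on low values and 37 with the replicate block. They were 41 with genes at 0 in a whole group removed, and leaving out 1 liver library gave 22 to 60. Deviations of same-numbered PF and LA libraries had correlations of 0.150, 0.0287, 0.0814 and 0.00401, and 4 of 8 libraries correlated best with their own number. These values cannot decide whether the numbers pair libraries, and the main test did not pair them. None of the 114 genes named by rule changed direction in any setting that tested it. These genes were named because they passed, and 425 of the 435 that passed had no overlap between groups. A change of direction could therefore hardly occur. Calls were lost for 44 of 114 with all 16 libraries in 1 model, 35 without a filter, 22 with the replicate block, and 19 to 52 when 1 library was left out, most without LA replicate 2. The replicate block cost the calls of Abcg2, Alad, C9, Ccl19, Cfb, Cfi, Chac2, Cyp2a2, Cyp2c23, F13b and Fga. It also cost those of Fgg, Gamt, Gcgr, Itih4, Ogdh, Prdx4, Pygl, Scp2, Serpina11, Serpind1 and Slc25a20. Of 778 recomputed list medians, 45 changed sign, the largest in size of these being 0.23. Median centring moved the median of all genes by -0.0098. FPKM without counts give no counting error for genes of a few FPKM.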

Other observations

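Of the genes outside the lists, 8 that rose are described here singly, chosen after their values were seen. Rdh2, a retinol dehydrogenase, was at 35.0, 31.6, 47.9 and 27.3 FPKM under PF and 72.6, 115, 86.6 and 129 FPKM under LA (log2 fold change 1.47, SE 0.20, adjusted p = 0.00317). Cryl1, a crystallin with activity toward gulonate, was at 12.6, 9.10, 6.17 and 15.2 FPKM under PF and 36.1, 30.5, 39.7 and 35.6 FPKM under LA (log2 fold change 1.69, SE 0.21, adjusted p = 0.00211). Rab30, a small GTPase of the Golgi, was at 5.54, 9.25, 4.87 and 3.71 FPKM under PF and 13.5, 20.9, 17.5 and 34.2 FPKM under LA (log2 fold change 1.70, SE 0.28, adjusted p = 0.00805), with LA replicate 4 highest. Ces2, a carboxylesterase, rose from 4.14 ± 0.856 to 10.3 ± 1.93 FPKM, Acsm3, a medium-chain acyl-CoA synthetase, rose from 26.1 ± 1.84 to 49.7 ± 7.98 FPKM, and Cml2, of the N-acetyltransferase-like camello genes, rose from 5.56 ± 1.53 to 16.6 ± 1.19 FPKM. Ctsl1, the lysosomal protease cathepsin L, rose from 304 ± 10.8 to 460.3 ± 42.0 FPKM, and App, the amyloid precursor, rose from 22.2 ± 3.12 to 65.2 ± 32.2 FPKM with high values in LA replicates 2 and 4. Calls of the first 7 genes held in all 8 fits with a library left out, while App kept its call only without LA replicate 1 or 3 (highest adjusted p 0.0911). App lost its call with no filter on low values (adjusted p = 0.0850).

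The following genes that fell were also chosen singly after their values were seen. Apom, the apolipoprotein that carries sphingosine phosphate, was at 323, 455, 414 and 370.1 FPKM under PF and 202, 208, 211 and 281 FPKM under LA (log2 fold change -0.79, SE 0.13, adjusted p = 0.00837). Tmprss6, the protease that lowers hepcidin expression, was at 195, 189, 201 and 190.4 FPKM under PF and 141, 124, 134 and 133 FPKM under LA (log2 fold change -0.54, SE 0.068, adjusted p = 0.00211). Il13ra1, a receptor chain for interleukins, fell from 29.4 ± 4.60 to 16.9 ± 2.44 FPKM, Rnase4, a secreted ribonuclease, fell from 1405 ± 88.0 to 975 ± 89.8 FPKM, and Pzp, a macroglobulin, fell from 989 ± 117 to 653 ± 64.0 FPKM. Groups did not overlap for these 5 genes, and each call held with every library left out. Fgl1, a fibrinogen-like secreted protein, fell from 306 ± 58.7 to 169 ± 35.9 FPKM, and it lost its call without PF replicate 2 (highest adjusted p 0.0561). Outside these, Lrpprc, which stabilises mitochondrial mRNA, rose from 25.6 ± 2.67 to 37.2 ± 4.05 FPKM, and Polg2, the accessory subunit of mitochondrial DNA polymerase, fell from 18.8 ± 1.48 to 9.76 ± 0.808 FPKM, with calls that held in all 8 fits. Apom, Tmprss6, Pzp and Fgl1 lost their calls with all 16 libraries in 1 model (highest adjusted p 0.415) and Fgl1 with no filter on low values (adjusted p = 0.0527).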
